A study of Rattus norvegicus with 18 samples.

Results

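The protein subunits of the mitochondrial respiratory chain were followed in messenger RNA of rat dorsal root ganglia. They were taken from the deposited count table as protein-coding genes that lie on the mitochondrial chromosome or carry a symbol of a subunit of complexes I to V (Nduf, Sdh, Uqcr, Cox or Atp5), which gave 99 of 25678 genes: 13 mitochondrially encoded and 86 nuclear encoded. Of these, 94 had enough reads to be tested, 13 mitochondrially and 81 nuclear encoded. The series sets a rat model of neuropathic pain, labelled NPP, beside sham-operated and control rats to study a herbal medicine, Shentong Zhuyu decoction, labelled herb. There were 18 libraries, 3 in each of 6 groups: NPP_herb and NPP_solvent for the model given herb or solvent, Sham_herb and Sham_solvent for sham rats given herb or solvent, Ctrl_solvent for control rats given solvent, and Ctrl for control rats with neither. The sources used here do not give how the model was made, the strain, sex, age, dose, solvent or spinal level, or whether a library came from 1 animal or a pool. The labels do not tie replicates to different animals, and p-values therefore cover the spread between these libraries, which may be technical.

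The respiratory chain sits in the inner mitochondrial membrane. Complex I (NADH dehydrogenase) and complex II (succinate dehydrogenase) pass electrons to complex III (cytochrome bc1) and complex IV (cytochrome c oxidase), and complex V (ATP synthase) uses the resulting proton gradient to make ATP. Complex II is built from nuclear genes alone, whereas the other complexes combine nuclear subunits with a core made from the mitochondrial genome, whose genes are transcribed as long polycistronic RNAs and then cut apart. Sensory neurons have long axons and a high demand for ATP, and disturbed mitochondria in their cell bodies and axons have been studied in several kinds of neuropathic pain.

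The nuclear subunit genes are known to share promoter elements for a small set of transcription factors. The 300-base promoter windows of RefSeq on build GRCr8 (250 bases before and 50 after the gene start) were available for 74 of the 86 nuclear members. Stretches of 150 bases, from 120 before to 30 after the start, follow for small subunits named in the comparisons below (Cox7a2, Uqcrh, Cox8a, Atp5me). They are also given for 2 subunits with steady levels (Atp5f1a, Sdha). Capitals mark exact matches, on either strand, to 4 motifs: GCGCANGCG for NRF1, CCGGAAG for GABP and other ETS factors, AAGATGGC for YY1 and CAAGGTCA for the estrogen-related receptors (ERR). Each is written 5′ to 3′ along the gene.
Cox7a2, chr8:89601120-89601269, - strand: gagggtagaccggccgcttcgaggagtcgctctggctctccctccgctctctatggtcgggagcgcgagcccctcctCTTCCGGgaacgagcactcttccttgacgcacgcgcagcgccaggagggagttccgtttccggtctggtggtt
Uqcrh, chr5:134790853-134791002, - strand: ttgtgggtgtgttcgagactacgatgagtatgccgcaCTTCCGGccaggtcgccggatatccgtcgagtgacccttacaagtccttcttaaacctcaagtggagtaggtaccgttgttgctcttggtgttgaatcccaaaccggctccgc
Cox8a, chr1:213833594-213833743, - strand: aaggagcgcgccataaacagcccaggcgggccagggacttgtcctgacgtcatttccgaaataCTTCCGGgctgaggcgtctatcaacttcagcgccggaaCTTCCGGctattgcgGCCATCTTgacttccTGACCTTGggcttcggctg
Atp5me, chr14:1464740-1464889, + strand: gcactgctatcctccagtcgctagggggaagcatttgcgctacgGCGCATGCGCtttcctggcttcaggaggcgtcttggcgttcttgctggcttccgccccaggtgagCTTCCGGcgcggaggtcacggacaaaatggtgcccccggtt
Atp5f1a, chr18:73567417-73567566, + strand: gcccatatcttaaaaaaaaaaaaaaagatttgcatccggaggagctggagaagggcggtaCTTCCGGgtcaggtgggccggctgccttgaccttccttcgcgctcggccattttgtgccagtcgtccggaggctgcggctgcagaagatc
Sdha, chr1:30764433-30764582, + strand: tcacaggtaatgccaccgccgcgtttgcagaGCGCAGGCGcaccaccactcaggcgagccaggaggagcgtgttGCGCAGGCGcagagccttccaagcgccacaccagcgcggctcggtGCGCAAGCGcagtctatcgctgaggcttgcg

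The ETS motif, read as CTTCCGG on the gene's strand, was found in 5 of these 6 stretches, and the Sdha stretch instead had 3 copies of the NRF1 motif. In the Atp5me promoter the NRF1 motif was matched on both strands at overlapping bases, which were counted once. Over the 74 promoters, the NRF1 motif was found in 24.32%, against 11.34% of the 12748 promoters of genes tested and 6.26% of all 27457 promoters in the table. The YY1 motif was found in 21.62% of member promoters, against 4.79% of those of genes tested and 3.44% of all. The ETS motif was found in 28.38%, against 15.09% and 9.22%, and the ERR motif in 5.41%, against 0.94% and 1.48%. At least 1 of the NRF1, ETS and YY1 motifs was present in 44 of the 74 (59.46%), against 26.98% of promoters of genes tested and 16.67% of all. These are matches of letters, not binding sites, and members with and without them did not differ in direction: the median log2 fold change of NPP_solvent against Sham_solvent was -0.39 over 43 tested members with a match and -0.40 over 27 without.

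The libraries held 18.2 M to 50.3 M counted reads (median 28.4 M). Markers of sensory neurons, satellite glia and myelinating Schwann cells were present in every group, with 9 neuron markers summing to between 27088 and 40858 CPM (counts scaled to library size), whereas 10 skeletal muscle markers summed to between 9.05 and 27.2 CPM. Ctrl replicates 2 and 3 had 1 and 0 reads of the Y-linked gene Eif2s3y, which had 2180 to 6568 reads in the other 16 libraries. These are whole ganglia, in which fewer cells of a type and less RNA per cell cannot be told apart.

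Respiratory chain messages made up a large share of the RNA. The 13 mitochondrially encoded genes took 7.72% to 11.3% of counted reads in a library (median 10.4%), and the 86 nuclear genes took 1.25% to 2.24% (median 1.54%). Compared per length, in the FPKM that the authors deposited (fragments scaled to gene length and library size), the median mean level was 7287 FPKM over the mitochondrially encoded genes and 154 FPKM over the nuclear ones. Among mitochondrially encoded genes the ATP synthase subunit gene ATP6 averaged 17001 FPKM, followed by the cytochrome c oxidase genes COX3 (16998 FPKM), COX2 (15212 FPKM) and COX1 (13466 FPKM), the catalytic core of complex IV. The complex I genes ND5 (847 FPKM) and ND6 (57.3 FPKM) were at the low end. ND6 is encoded on the other strand of the mitochondrial genome, ND4L overlaps ND4 and ATP8 overlaps ATP6. Whether the counting used strand is not stated in the sources, which leaves the counts of these overlapping genes uncertain.

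**Figure D1:**
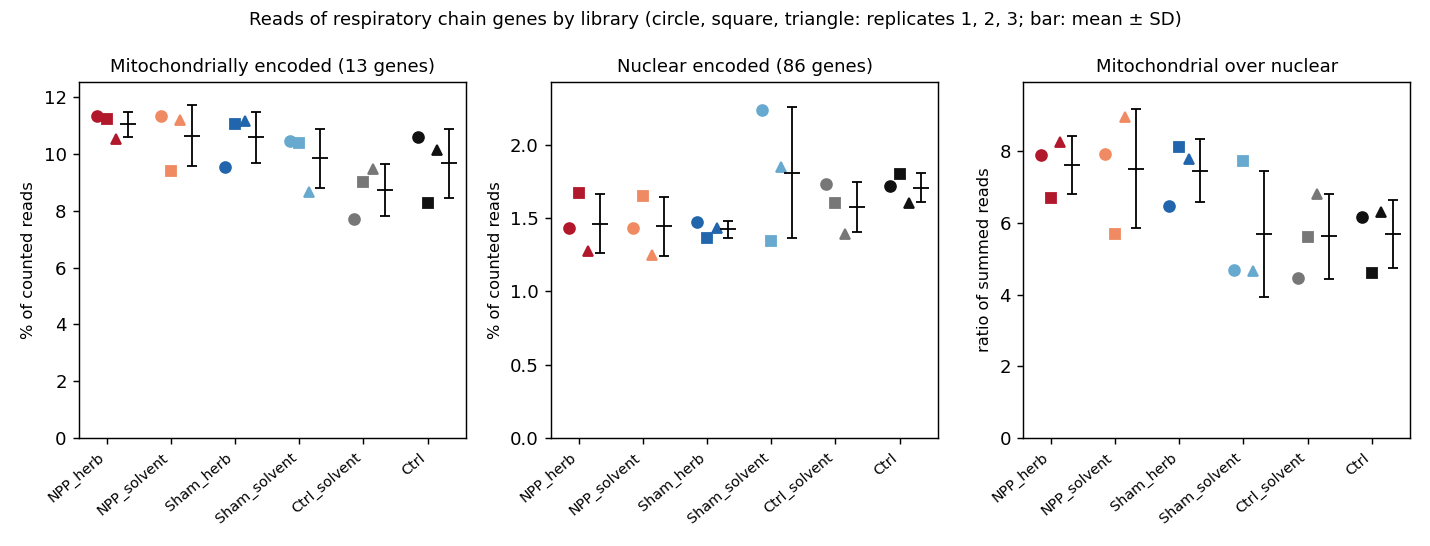
Percent of counted reads in the 13 mitochondrially encoded genes, in the 86 nuclear members, and the ratio of their summed reads, for each library (points, by replicate) with mean ± SD of each group (n = 3). The 3 Sham_solvent libraries span 1.34% to 2.24% for the nuclear members, the widest spread of the 6 groups.

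Nuclear subunits differed by complex. The median level was 351 FPKM over 19 subunits of complex IV, 350.2 FPKM over 18 of complex V, 129 FPKM over 37 of complex I, 109 FPKM over 8 of complex III and 71.7 FPKM over the 4 of complex II. The highest were Cox6a1 (782 FPKM) and Cox4i1 (768 FPKM), ubiquitous isoforms of complex IV subunits, followed by Atp5f1b (729 FPKM), the catalytic beta subunit of ATP synthase. Atp5if1, the inhibitor protein of ATP synthase, stood at 623 FPKM. Isoforms typical of other tissues were low or near absent: Cox4i2, the lung and hypoxia isoform, averaged 3.47 FPKM, Ndufa4l2, a hypoxia-induced relative of Ndufa4, 1.95 FPKM and Cox6b2, the testis isoform, 2.63 FPKM. The muscle isoforms Cox6a2 and Cox8b had at most 4 and 11 reads in any library, and Cox7b2 at most 2. Together with Atp5hl1 and Ndufs6, these 3 were the nuclear members too low to test. Ndufs6 had 51 reads over all libraries, while a second locus that the GRCr8 gene table names Ndufs6 had 47969.

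Steadiness over the 18 libraries also differed by gene. Over 21 nuclear subunits listed here as core the SD of log2 CPM had a median of 0.19 and ran between 0.09 and 0.41. Over the other 60 tested nuclear members the median was 0.31. Gene length, taken up below, was not compared between these sets. The list of 21 includes Cox4i1, Cox5a, Cox5b and Cox6c, which are not part of the mitochondrially encoded catalytic core of complex IV. The SD was 0.09 for Sdha, the flavoprotein of complex II, 0.12 for Ndufs1, the largest iron-sulfur subunit of complex I, and 0.11 for Atp5f1a, the ATP synthase alpha subunit. The ranges of both sets overlapped: the core subunit Ndufs7 of complex I had 0.41 and the accessory Ndufa10 had 0.10, while the small subunits Atp5me and Uqcrq had 0.42 and 0.44. Among the mitochondrially encoded genes COX2 was the steadiest (0.13), and ATP8 (0.57), ND5 (0.72) and ND4L (1.02) varied most.

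The pain model given solvent was first set against sham rats given solvent. Nuclear subunits lay lower in NPP_solvent: the median log2 fold change was -0.41 over the 81 tested, with 3 higher and 78 lower, while the median of all 17043 genes tested was 0.01. Mitochondrially encoded genes had a median of 0.08, with 9 higher and 4 lower. The nuclear medians by complex were -0.40 for I, -0.43 for III, -0.44 for IV and -0.42 for V, and -0.15 for the 4 genes of complex II. By edgeR's quasi-likelihood test with Benjamini-Hochberg adjustment, no member passed an adjusted p of 0.05 and neither did any other gene (0% of genes tested). At an unadjusted p under 0.05, 27 nuclear members were lower, against 3.02% of all genes lower, and none higher, against 2.66% of all genes higher, and 0 mitochondrially encoded genes met it. The count of 27 rested on single libraries: it was 0 without Sham_solvent replicate 1, 72 without replicate 2 and 7 without replicate 3. It was 5, 55 and 1 without NPP_solvent replicate 1, 2 or 3. The count over all 17043 genes, in either direction, moved as well, from 967 with every library. It was 377, 3390 and 557 without Sham_solvent replicate 1, 2 or 3, and 802, 1592 and 421 without NPP_solvent replicate 1, 2 or 3. The nuclear median was -0.14 without Sham_solvent replicate 1 and -0.66 without replicate 2.

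The members with the smallest p were small accessory subunits. Cox7c, a small subunit of complex IV, had 241, 237 and 188 CPM in NPP_solvent, against 439, 224 and 309 CPM in Sham_solvent (log2 fold change -0.55, SE 0.19, edgeR adjusted p = 0.755). Uqcrh, the hinge protein of complex III, had 245, 287 and 219 CPM in NPP_solvent, against 454, 235 and 361 CPM in Sham_solvent (log2 fold change -0.48, SE 0.19, edgeR adjusted p = 0.755). Sham_solvent replicates 1 and 3 were above the NPP_solvent libraries for both genes, and replicate 2 lay among or below them, so the groups overlapped. Cox7b, another small subunit of complex IV, had a log2 fold change of -0.55, and Ndufa6 and Atp5mk had -0.62 and -0.57. Of the steadier catalytic subunits, Ndufs1 was at 0.06 (SE 0.10) and Sdha at 0.02 (SE 0.09). No member's 3 NPP_solvent values lay wholly apart from its 3 Sham_solvent values, which was so for 3.67% of all genes on the lower and 4.44% on the higher side. The 9 neuron markers summed to 33483 to 35560 CPM in NPP_solvent and 36541 to 40858 CPM in Sham_solvent. The neurofilament genes Nefh, Nefm and Nefl made up most of this sum, and the markers did not all go 1 way. Nefh had 7237, 7692 and 7867 CPM in NPP_solvent, against 8375, 10372 and 9228 CPM in Sham_solvent. Scn10a had 280, 310 and 399 CPM, against 237, 291 and 205 CPM. The 4 neutrophil markers summed to 37.9 to 43.4 CPM in NPP_solvent and 82.8 to 132 CPM in Sham_solvent. The part of these markers in the comparison was not tested.

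**Figure D2:**
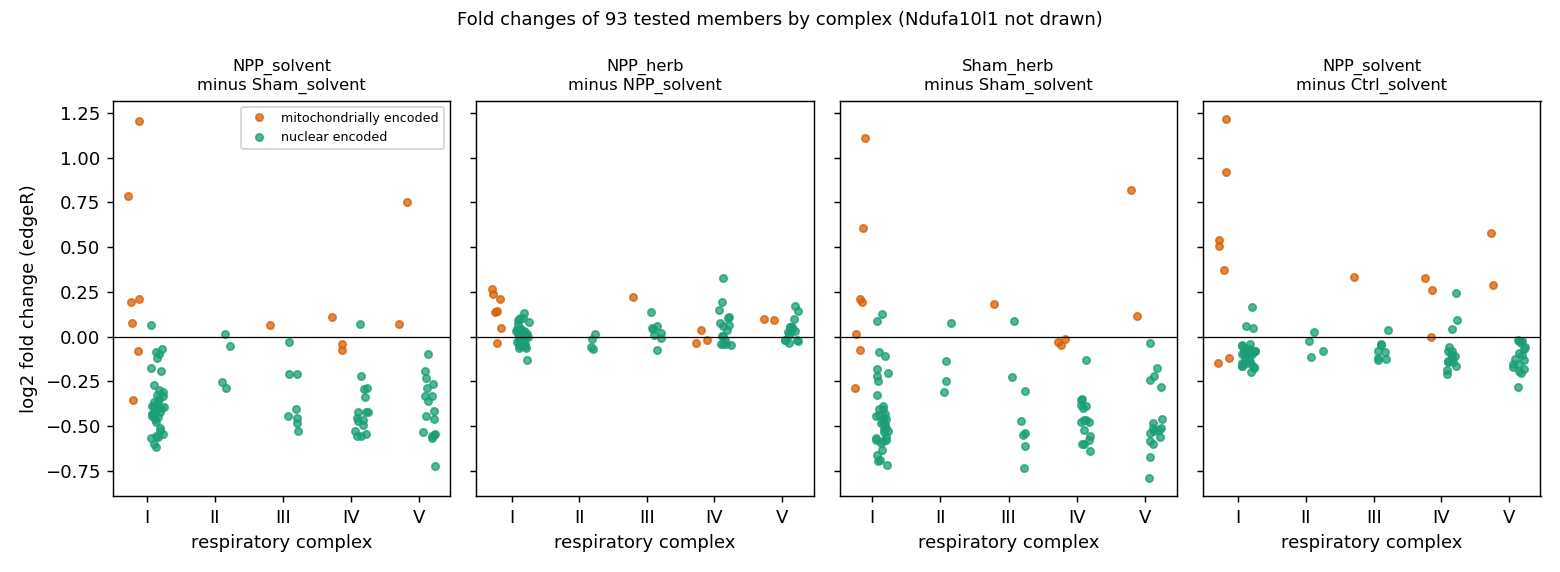
Log2 fold changes from edgeR of the tested members in 4 comparisons, by respiratory complex, with mitochondrially encoded genes in orange and nuclear ones in green; Ndufa10l1 is not drawn. In both comparisons against Sham_solvent most nuclear members lie below 0 (medians -0.41 and -0.48) and the mitochondrially encoded genes do not.

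Sham rats given herb were next set against sham rats given solvent. Sham_solvent stands in both comparisons, so their values are not independent. Nuclear subunits were again lower, in Sham_herb, with a median log2 fold change of -0.48 (5 higher, 76 lower), and mitochondrially encoded genes had a median of 0.12 (8 higher, 5 lower). No member passed (edgeR, smallest adjusted p = 0.491; 0% of genes tested), while 52 nuclear members were lower at an unadjusted p under 0.05, against 5.49% of all genes lower, and 1 mitochondrially encoded gene, ATP8, was higher, against 4.4% of all genes higher. The count of 52 was 40, 13 and 21 without Sham_herb replicate 1, 2 or 3. It was 0, 70 and 27 without Sham_solvent replicate 1, 2 or 3. Of all 17043 genes, 1686 met an unadjusted p under 0.05 in either direction with every library. That number was 1318, 872 and 1070 without Sham_herb replicate 1, 2 or 3. It was 505, 4146 and 1007 without Sham_solvent replicate 1, 2 or 3. Cox7a2, the widely expressed isoform of a small complex IV subunit, had 158, 142 and 152 CPM in Sham_herb, against 295, 160.2 and 232 CPM in Sham_solvent (log2 fold change -0.60, SE 0.21, edgeR adjusted p = 0.491). It was the only member whose groups lay apart on the lower side, against 6.06% of all genes. Cox8a, the ubiquitous isoform of another small complex IV subunit, had 153, 147 and 166 CPM in Sham_herb, against 262, 157 and 227 CPM in Sham_solvent. Ndufs1 (0.13, SE 0.10) and Sdha (0.07, SE 0.09) were near 0 or slightly positive in log2 fold change.

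Whether any member passed in this comparison turned on 1 library, while the unadjusted count above moved with several. Without Sham_solvent replicate 2, 42 nuclear members passed an adjusted p of 0.05 in edgeR, all lower in Sham_herb, against 2.22% of all genes called lower and 0.622% called higher. None of the 13 mitochondrially encoded genes passed. Among the 42 were Uqcrh (log2 fold change -0.78, SE 0.16), Cox7a2 (-0.82, SE 0.19) and Cox8a (-0.67, SE 0.15), each at an adjusted p of 0.0480. The smallest adjusted p over the members ran between 0.0480 and 0.999 over all settings tried. Without Sham_solvent replicate 1 the nuclear median was -0.20 and no member met even an unadjusted p under 0.05, which 505 of 17043 genes did.

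The Sham_solvent libraries were spread wide in the nuclear subunits as a whole. A nuclear score was taken for each library by averaging, across the 81 tested nuclear members, how far log2 CPM lay from that gene's 18-library average. It was -0.08, -0.21 and -0.10 in Sham_herb, against 0.67, -0.32 and 0.27 in Sham_solvent. The NPP_solvent scores were -0.14, 0.14 and -0.45 and those of NPP_herb -0.09, 0.19 and -0.29. Ctrl_solvent libraries scored 0.15, -0.02 and -0.18, against 0.23, 0.22 and 0.01 for those of Ctrl. The highest and the second highest score of all libraries were both in Sham_solvent, and Sham_solvent replicate 2 was the second lowest. The 81 members include Ndufa10l1, which was nearly absent in some libraries (below), and scores without it were not computed.

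The nuclear score moved with a property of the libraries that did not involve these genes. For each library a gene length slope was computed over 12257 genes that are not members: the change in log2 CPM, relative to the gene's mean, per doubling of the gene length implied by the deposited counts and FPKM. A negative slope means relatively more reads on short genes. It was -0.171, 0.084 and -0.091 in Sham_solvent replicates 1 to 3, and the extremes over all libraries were -0.171 there and 0.135 in NPP_solvent replicate 3. Of 9 libraries with a negative slope 7 had a nuclear score above 0, and of 9 with a positive slope 8 had one below 0. The mitochondrially encoded genes, scored the same way, ran opposite: 7 of the 9 libraries with a negative slope scored below 0. Of the 9 with a positive slope 8 scored above 0, and scores ran from -0.52 in Ctrl_solvent replicate 1 to 0.35 in NPP_solvent replicate 3. The mitochondrially encoded genes were about as short as the nuclear members: the median implied length was 877 and 841 bases, against 3520 over all genes tested. With the slope as a covariate in edgeR, the nuclear median was -0.07 for NPP_solvent against Sham_solvent and 0.01 for Sham_herb against Sham_solvent, and 1 nuclear member met an unadjusted p under 0.05 in each, against 3.05% and 2.66% of all genes. With the slope as covariate and Sham_solvent replicate 2 left out, a setting chosen after seeing the data, no member passed and the nuclear median for Sham_herb against Sham_solvent was -0.09.

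**Figure D3:**
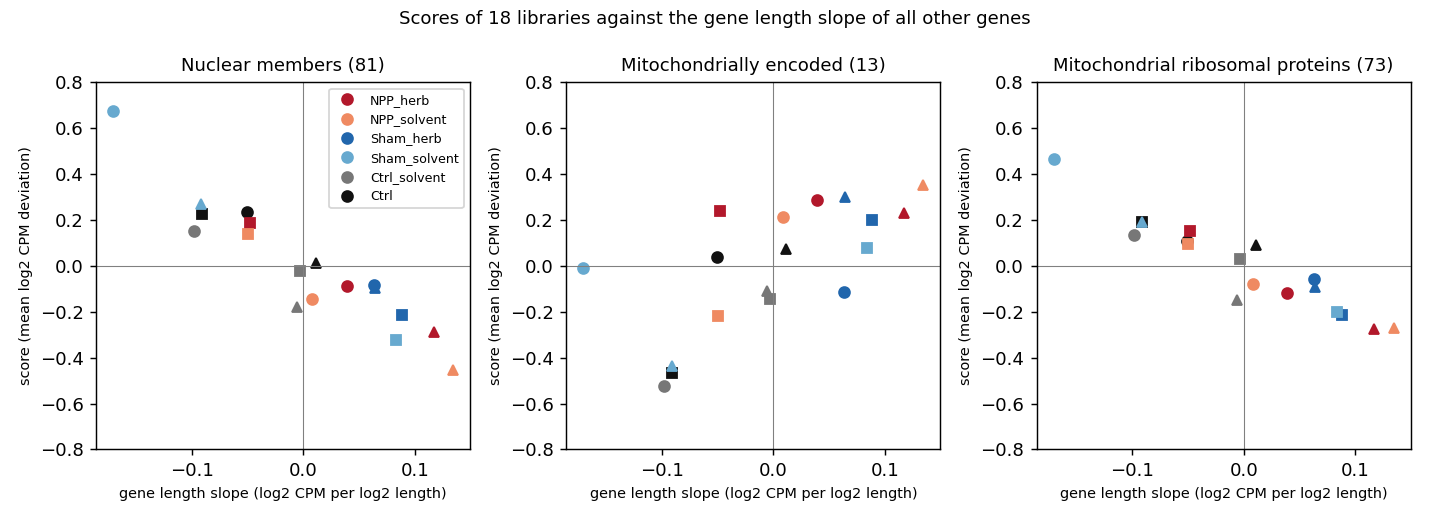
Score of each of the 18 libraries for nuclear members, mitochondrially encoded genes and mitochondrial ribosomal protein genes (mean log2 CPM deviation from the gene's mean, vertical) against the library's gene length slope over non-member genes (horizontal); colours are groups and circle, square and triangle are replicates 1, 2 and 3. Nuclear members and mitochondrial ribosomal protein genes run from upper left, Sham_solvent replicate 1, to lower right, and the mitochondrially encoded genes from lower left to upper right, with Sham_solvent replicate 1 near 0.

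The nuclear members were also set beside other genes of like length. In NPP_solvent against Sham_solvent the median log2 fold change was -0.46 over 22 nuclear members with an implied length under 600 bases and -0.40 over 147 other genes of that length. Between 600 and 1000 bases it was -0.45 over 26 members and -0.32 over 442 other genes. Between 1000 and 2000 bases it was -0.29 over 26 members and -0.15 over 2124 other genes, and between 2000 and 4000 bases -0.06 over 6 members and -0.02 over 4121 other genes. In Sham_herb against Sham_solvent the values under 600 bases were -0.56 for members and -0.53 for other genes. In Ctrl_solvent against Ctrl they were -0.20 for members and 0.02 for other genes. Implied lengths are relative, and what sets the slope was not tested.

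Herb was set against solvent in the pain model. In NPP_herb against NPP_solvent the nuclear median log2 fold change was 0.02 (50 higher, 31 lower) and the mitochondrially encoded median 0.10 (10 higher, 3 lower). Leaving out 1 library turned both directions: the nuclear median was -0.12 without NPP_herb replicate 2, -0.09 without NPP_solvent replicate 3 and 0.15 without NPP_solvent replicate 2, and the mitochondrially encoded median was -0.05 without NPP_solvent replicate 2 and 0.21 without its replicate 3. No member passed in edgeR (smallest adjusted p = 1.00; 0% of genes tested), none met an unadjusted p under 0.05, which 1.87% of all genes did, and DESeq2 and limma voom called none. Cytochrome b, CYTB, the mitochondrially encoded core of complex III, had 10784, 10710.2 and 11215 CPM in NPP_herb, against 9901, 7878 and 10320.5 CPM in NPP_solvent (log2 fold change 0.22, SE 0.15, edgeR adjusted p = 1.00). All 3 NPP_herb values were above the NPP_solvent values, as for 2.69% of all genes. Among steadier genes, Ndufs1 differed by -0.05 (SE 0.10) and COX1 by -0.03 (SE 0.13) on the log2 scale.

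The pain model given herb was also set against sham given herb. In NPP_herb against Sham_herb the nuclear median was 0.08 (68 higher, 13 lower) and the mitochondrially encoded median 0.09 (11 higher, 2 lower), with 0 members called by edgeR (0% of genes tested) and 0 at an unadjusted p under 0.05, against 1.4% of all genes. The nuclear median was -0.08 without NPP_herb replicate 2, 0.21 without NPP_herb replicate 3 and -0.06 with the length slope as covariate. COX1 and Cox8a lay wholly above Sham_herb, against 3.18% of all genes, and Atp5f1a wholly below, against 4.17%. The herb effect in the model minus that in sham, an interaction term over the 4 groups, had a nuclear median of 0.50 (77 higher, 4 lower) and a mitochondrially encoded median of -0.02. None passed (edgeR, smallest adjusted p = 0.920; 0% of genes tested), and 5 nuclear members, Atp5me, Uqcr10, Cox7c, Uqcrh and Ndufa2, met an unadjusted p under 0.05, against 1.89% of all genes in that direction. That count was 31 without NPP_herb replicate 3, 24 without NPP_solvent replicate 2 and 64 without Sham_solvent replicate 2. It was between 0 and 3 without any other library of the 4 groups. Over all 17043 genes, in either direction, the count was 580 with every library. It was 1167 without NPP_herb replicate 3, 896 without NPP_solvent replicate 2 and 2303 without Sham_solvent replicate 2. With the length slope as covariate the nuclear median of this term was 0.02.

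The mitochondrially encoded genes had their largest median difference of the 8 comparisons between the pain model and the solvent control. In NPP_solvent against Ctrl_solvent their median log2 fold change was 0.33 (10 higher, 3 lower), beside a nuclear median of -0.10 (8 higher, 73 lower). No member passed (edgeR, smallest adjusted p = 0.694; 0% of genes tested), and ND2, ND1, ND4, COX3 and CYTB were higher at an unadjusted p under 0.05, against 1.49% of all genes higher. Of these 5, none met it without Ctrl_solvent replicate 1. Without NPP_solvent replicate 1 or 3, 2 mitochondrially encoded genes did, and without replicate 2, 8 did. Over all 17043 genes, in either direction, 937 met it with every library and 463 without Ctrl_solvent replicate 1. Without NPP_solvent replicate 1, 2 or 3, 871, 1135 and 661 of all genes did. ND2, a proton-pumping subunit of complex I, had 11097, 8377 and 11218 CPM in NPP_solvent, against 6013, 6780.1 and 8305 CPM in Ctrl_solvent (log2 fold change 0.54, SE 0.20, edgeR adjusted p = 0.694). COX3 had 16818, 14915 and 14926 CPM in NPP_solvent, against 11890.2, 12290.1 and 12960.1 CPM in Ctrl_solvent (log2 fold change 0.33, SE 0.13, edgeR adjusted p = 0.760). ND2, COX3, ATP6 and the nuclear Ndufs1 lay wholly above Ctrl_solvent, against 3.45% of all genes. With the length slope as covariate the mitochondrially encoded median was 0.31 and the nuclear median turned to 0.09, and 4 mitochondrially encoded and 3 nuclear members met an unadjusted p under 0.05, all higher, against 5.39% of all genes in either direction. The nuclear median was also above 0, at 0.03, without NPP_solvent replicate 3. The catalytic COX2 gene had the same mean in both groups, 11421 ± 980 CPM in NPP_solvent and 11421 ± 1093 CPM in Ctrl_solvent (SD, n = 3 each).

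In this and the following comparisons the Ctrl_solvent libraries also differed in other measures. All 7 macrophage markers were present in every group, and they summed to 88.2 to 204 CPM in NPP_solvent, 120.2 to 210.5 CPM in Sham_solvent, 124 to 405 CPM in Ctrl_solvent and 60.1 to 109 CPM in Ctrl. The macrophage complement gene C1qa had 71.9, 61.6 and 16.7 CPM in NPP_solvent, against 116, 24.3 and 97.9 CPM in Ctrl_solvent. Mitochondrial ribosomal RNA took 0.291%, 0.156% and 0.235% of counted reads in Ctrl_solvent replicates 1 to 3 (median of the 18 libraries 0.157%). Replicates 1 and 3 were high in C1qa and in mitochondrial ribosomal RNA. Among the macrophage markers, C1qb, Aif1 and Cd68 were likewise higher in Ctrl_solvent replicates 1 and 3 than in replicate 2. The others did not go this way as clearly: Csf1r had 36.2, 32.9 and 40.3 CPM in Ctrl_solvent and Mrc1 17.0, 17.4 and 16.8 CPM. Cd163, at 5.08, 7.82 and 3.37 CPM, was highest in replicate 2. The part of these measures in the comparisons was not tested.

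Sham rats given solvent were set against the same Ctrl_solvent libraries. The mitochondrially encoded median was 0.21 in Sham_solvent (11 higher, 2 lower) and the nuclear median 0.28 (76 higher, 5 lower). No member passed (edgeR, smallest adjusted p = 0.584; 0% of genes tested), and COX3, ND1, Cox4i2 and Ndufa6 met an unadjusted p under 0.05, all higher, against 1.65% of all genes higher. With the length slope as covariate 32 nuclear and 3 mitochondrially encoded members met it, all higher, against 9.12% of all genes in either direction, and none passed (smallest adjusted p = 0.336). Without Sham_solvent replicate 2, 67 nuclear members met it, beside 2560 of all 17043 genes in either direction, against 1043 with every library. No nuclear member did without Sham_solvent replicate 1 or 3 or Ctrl_solvent replicate 3, beside 743, 808 and 546 of all genes. Without Ctrl_solvent replicate 1, 10 nuclear members did, and without its replicate 2, 3 did, beside 759 and 1759 of all genes. Of the mitochondrially encoded genes 1 met it without Ctrl_solvent replicate 1, 0 without Sham_solvent replicate 1 and 4 without its replicate 3. COX3 had 18225, 15335 and 14423 CPM in Sham_solvent, each above the Ctrl_solvent values, as for 3.02% of all genes. Cox4i2 had 7.88, 3.69 and 5.03 CPM in Sham_solvent, against 3.41, 4.17 and 2.80 CPM in Ctrl_solvent (log2 fold change 0.66, SE 0.31, edgeR adjusted p = 0.807), with the groups overlapping.

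Control rats given solvent were set against untreated controls. In Ctrl_solvent against Ctrl both sets were lower, with medians of -0.18 over the mitochondrially encoded genes (2 higher, 11 lower) and -0.17 over the nuclear ones (2 higher, 79 lower), and no member passed in edgeR (smallest adjusted p = 0.426; 0% of genes tested) or met an unadjusted p under 0.05, which 13% of all genes did in either direction. With the length slope as covariate 19 nuclear and 2 mitochondrially encoded members met it, all lower, against 18.7% of all genes, and none passed (smallest adjusted p = 0.0999). Without Ctrl replicate 2, 4 mitochondrially encoded genes met it, and without Ctrl_solvent replicate 2 or 3, 1 did. Of all genes 1739 met it without Ctrl replicate 2, and 3172 and 1222 without Ctrl_solvent replicate 2 or 3, against 2218 with every library. COX3 and 13 nuclear members lay wholly below Ctrl, against 8.15% of all genes. Uqcrc1, a core protein of complex III, had 210.0, 215 and 169.7 CPM in Ctrl_solvent, against 239.7, 249.6 and 221 CPM in Ctrl. Ndufs7, an iron-sulfur subunit of complex I, had 65.4, 60.3 and 49.7 CPM in Ctrl_solvent, against 82.2, 82.7 and 76.1 CPM in Ctrl (log2 fold change -0.46, SE 0.26, edgeR adjusted p = 0.479). The part in this comparison of the 2 Ctrl libraries without Y-linked reads was not tested.

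**Figure D4:**
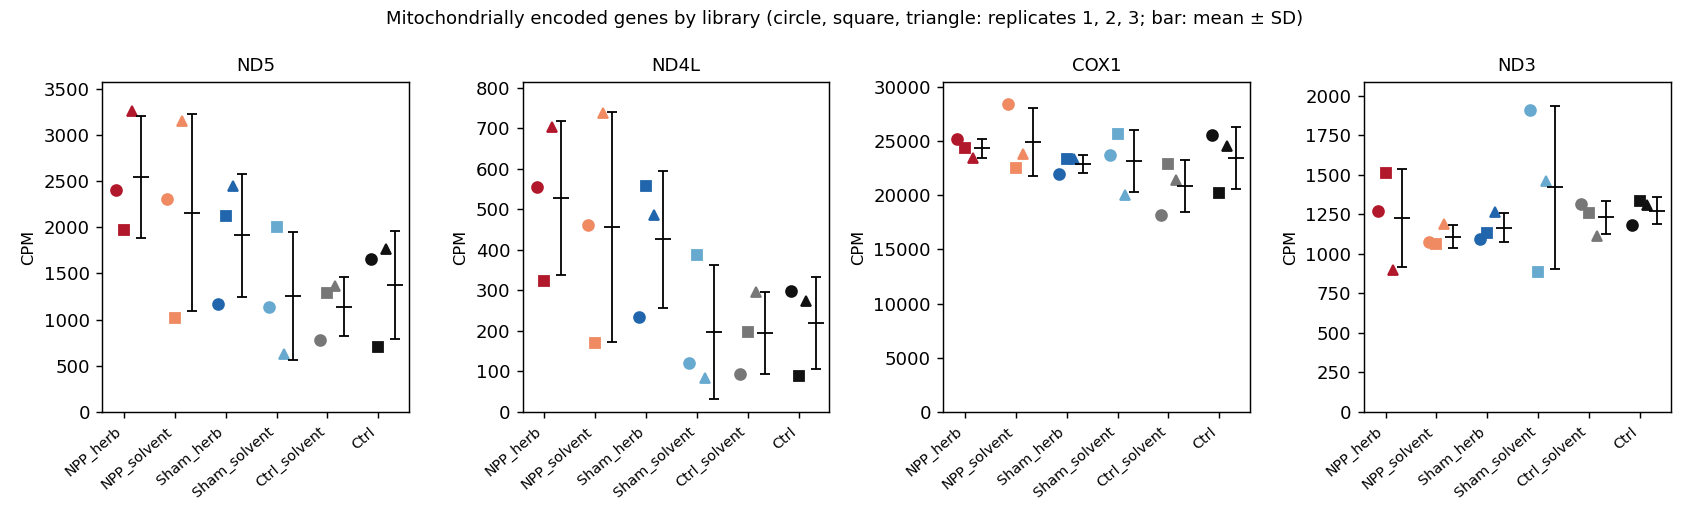
CPM of ND5, ND4L, COX1 and ND3 in each library (points, by replicate) with mean ± SD of each group (n = 3). ND5 and ND4L range widely within groups while COX1 stays between 18192 and 28459 CPM.

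Within the mitochondrial genome the genes did not keep a fixed ratio between libraries. ND5, a complex I gene, had 2399, 1967 and 3263 CPM in NPP_herb and 2308, 1021 and 3146 CPM in NPP_solvent. It had 1164, 2123 and 2446 CPM in Sham_herb, against 1135, 2001 and 624 CPM in Sham_solvent, and 775, 1285 and 1363 CPM in Ctrl_solvent, against 1652, 700.4 and 1759 CPM in Ctrl. All 3 NPP_herb values were above those of Ctrl_solvent and Ctrl, pairs of groups that were not tested. NPP_solvent, Sham_herb and Sham_solvent each held low and high libraries. The ratio of ND5 to COX1 reads ran from 0.0312 in Sham_solvent replicate 3 to 0.139 in NPP_herb replicate 3, that of ND4L to ND4 from 0.0146 to 0.0766 in the same libraries, and that of ATP8 to ATP6 from 0.0766 in Sham_solvent replicate 1 to 0.219 in NPP_solvent replicate 3. ND3, also a complex I gene, stood the other way, at 1910.2 CPM in Sham_solvent replicate 1 and 886 CPM in Sham_solvent replicate 2. The length slopes of these libraries were -0.171 for Sham_solvent replicate 1, 0.084 for replicate 2, -0.091 for replicate 3, 0.117 for NPP_herb replicate 3 and 0.135 for NPP_solvent replicate 3. Their part in these ratios was not tested.

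1 nuclear member was present in some libraries and absent in others. Ndufa10l1, a copy of the complex I subunit gene Ndufa10, had 199, 279 and 942 reads in NPP_herb and 0, 290 and 1 in NPP_solvent. It had 306, 326 and 710 reads in Sham_herb, against 374, 2 and 248 in Sham_solvent, and 287, 1 and 517 in Ctrl_solvent, against 607, 161 and 1 in Ctrl. The 5 libraries with at most 2 reads came from 4 groups and the lowest of the other 13 had 161 reads, with none between. Ndufa10 itself stayed between 189 and 245 CPM in all 18. A near-identical copy may share reads with its parent gene, so the counts of Ndufa10l1 are uncertain, and its log2 fold change of 2.42 (SE 1.93) in NPP_herb against NPP_solvent rested on which libraries held it.

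**Figure D5:**
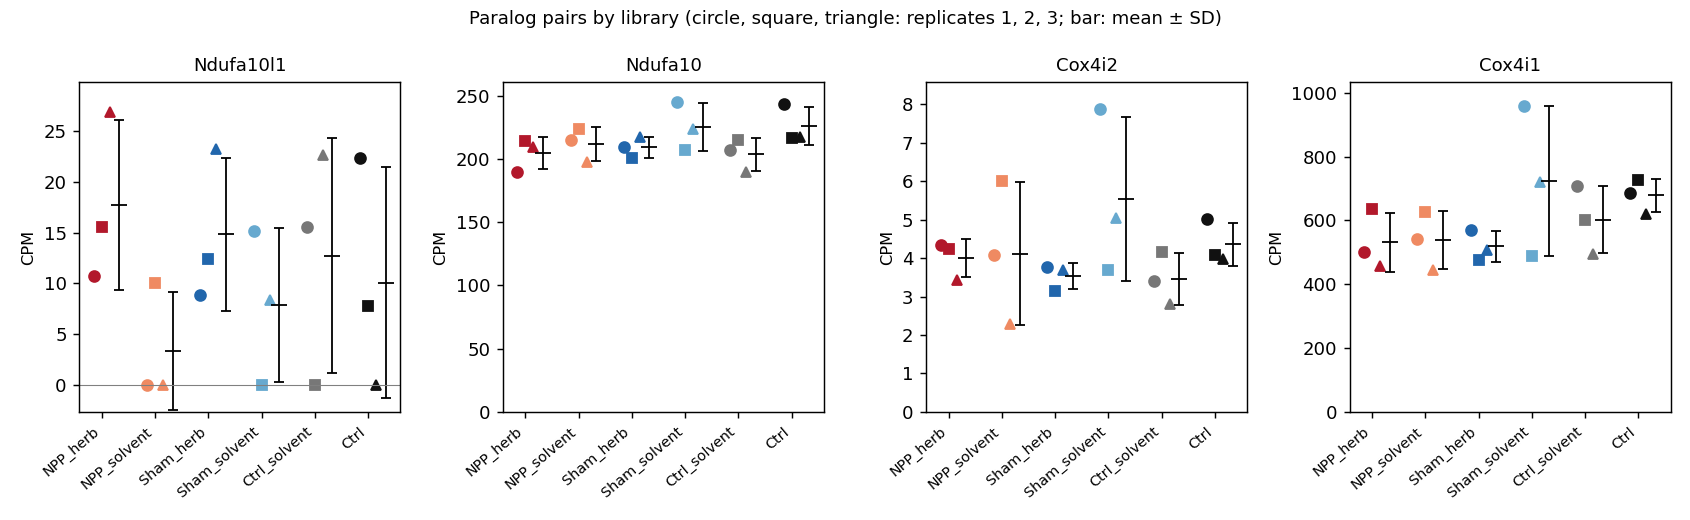
CPM of Ndufa10l1, Ndufa10, Cox4i2 and Cox4i1 in each library (points, by replicate) with mean ± SD of each group (n = 3); the grey line is 0. Ndufa10l1 is at or near 0 in 5 libraries while Ndufa10 stays between 189 and 245 CPM.

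Other mitochondrial gene groups were set beside the subunits. The 73 tested mitochondrial ribosomal protein genes had medians of -0.25 in NPP_solvent against Sham_solvent and -0.32 in Sham_herb against Sham_solvent, and the 50 tested assembly factors -0.19 and -0.20. Among assembly factors Ndufaf2, which serves complex I, averaged 13.8 ± 0.7 CPM in Sham_herb and 23.2 ± 6.73 CPM in Sham_solvent (SD, n = 3 each; edgeR adjusted p = 0.491). The 88 tested cytosolic ribosomal protein genes, also short, had medians of -0.40 and -0.44. In Ctrl_solvent against Ctrl they were at 0.18, opposite to the nuclear subunits at -0.17. The 17 transcriptional regulators, among them Ppargc1a, Nrf1 and Gabpa, had medians of 0.08 and 0.03 in the comparisons against Sham_solvent, the 16 citrate cycle enzymes -0.07 and -0.05, and the 17 glycolysis enzymes 0.07 and -0.04. The 20 genes of mobile electron carriers and coenzyme Q synthesis were at -0.07 and -0.12, the 32 genes of mitochondrial transcription and RNA handling at -0.10 and -0.08, and the 16 tested of 19 mitochondrial stress genes at -0.02 and -0.05. No gene of any of these lists passed in any comparison.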

How the data were processed

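Raw read counts per gene, whole numbers, and FPKM values scaled to gene length and library size were deposited by the authors, 1 column per library, for 25678 and 25557 genes. Per the labels' protocols, messenger RNA was captured on beads from total RNA, made into libraries with a KAPA stranded kit and sequenced from both ends; coverage after such capture can depend on RNA integrity, which the protocols give as checked on a gel, with no value per library. The submitters' processing notes name HISAT2, DESeq2 and, as genome build, mRatBN7.2. The sources used here name no read counter, strand setting or annotation release.

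Counts were tested with edgeR 4.0.16 (R 4.3.3): filterByExpr left 17043 genes, scaling was by TMM, and all 18 libraries entered 1 robust quasi-likelihood model with 1 coefficient per group (12 residual degrees of freedom). P-values were adjusted per comparison across the 17043 genes by the Benjamini-Hochberg method, and a count at an unadjusted p under 0.05 is given beside it. Groups lie apart when their 3 values do not overlap. CPM were computed on TMM-scaled library sizes. Scores use log2 CPM with a prior count of 2. The length slope used non-member genes with a mean of at least 1 CPM. Alternatives were DESeq2 1.42.0, limma 3.58.1 (voom, and log2 FPKM with pseudocounts of 1 and 0.1), other scaling and filters, a replicate block and leaving out each library. The fitting code was checked on simulated counts, drawn independently with the same spread for every gene and no length slope. That check cannot tell how the test behaves on these libraries. No library pair agreed within sampling noise (smallest chi-square per degree of freedom 12.8). Named genes were the mitochondrially encoded genes, core subunits, alternative isoforms, the nuclear members with the smallest p per comparison (mean of at least 1 CPM), and the highest, lowest, steadiest and most variable members. Ndufa2, C1qa, the genes lying apart and loci outside the rule were named after their values were seen. The members, gene lists and tests were chosen with earlier results of these data known. Promoter coordinates are those of GRCr8, not of the build of the counts.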

Additional observations from a re-analysis of the deposited data

How the results depend on the processing

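Under every setting tried, no member was called in any of the 8 comparisons, with 1 exception: 42 members in Sham_herb against Sham_solvent without Sham_solvent replicate 2. DESeq2, limma voom and the FPKM fits called 0 members. Over all genes, DESeq2 called 471 of 17035 in Ctrl_solvent against Ctrl. It called 40 in NPP_solvent against Ctrl_solvent and 35 in Sham_solvent against Ctrl_solvent. Without Ctrl_solvent replicate 2, edgeR called 719, 178 and 241 of 17043 genes in the same 3 comparisons, and no member. The mitochondrially encoded minus nuclear median was 0.59 for Sham_herb against Sham_solvent and -0.51 for the interaction; with the length slope as covariate it was 0.0682 and 0.0438, and with the slope and without Sham_solvent replicate 2, added after seeing the data, 0.0555 and -0.015. For NPP_solvent against Sham_solvent it was 0.48, and 0.117 with the slope. Over the fits that leave out 1 library, it ran from 0.29 to 0.82 in NPP_solvent against Sham_solvent, 0.47 to 0.77 in Sham_herb against Sham_solvent, -0.20 to 0.30 in NPP_herb against NPP_solvent, -0.10 to 0.20 in NPP_herb against Sham_herb, -0.31 to 0.15 in Sham_solvent against Ctrl_solvent, -0.21 to 0.15 in Ctrl_solvent against Ctrl, 0.28 to 0.67 in NPP_solvent against Ctrl_solvent and -0.78 to -0.30 for the interaction. Members called ran from 0 to 42 in Sham_herb against Sham_solvent and were 0 in the others. The length slope is itself measured from these libraries, so a covariate fit also removes any difference between groups that moves with it. Same-numbered replicates did not deviate together (correlations of -0.282 to 0.231, over 0.1 in 5 of 21 pairs), so the numbers were not taken as pairs; a replicate block gave 0 members called and 32 and 51 nuclear members at an unadjusted p under 0.05 in the 2 comparisons against Sham_solvent, against 27 and 52. Over all genes the replicate block gave 1001 and 1727 at an unadjusted p under 0.05 in these 2 comparisons, against 967 and 1686. Other methods moved the nuclear counts more. With only the compared groups fitted they were 5 and 23, beside 501 and 1401 of all genes tested. In limma voom they were 13 and 25, beside 902 and 1444 of all genes. On FPKM with a pseudocount of 1 they were 9 and 18, beside 889 and 1573. DESeq2 gave 39 and 56, beside 1139 and 1919. Leaving out copies and overlapping genes, also added later, kept every median's direction except the mitochondrially encoded one of the interaction (0.01).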

Other observations

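Several respiratory chain genes fell outside the naming rule and were looked at after the values were seen. Cyc1, the cytochrome c1 subunit of complex III, averaged 150.0 CPM and Ndufab1, the acyl carrier protein bound to complex I, 145.9 CPM. Ndufb1, a complex I subunit that the count table types as a long non-coding RNA, averaged 62.8 CPM and ranged from 40.5 to 120.2 CPM. A locus that the GRCr8 gene table names Cox7a1, the heart and muscle isoform, averaged 5.74 CPM, and the locus it names Ndufs6 averaged 94.5 CPM and ranged from 69.4 to 167 CPM.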
